A study of Mus musculus with 2 samples.

Results

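Proteins that leave the cell, or that sit in its membranes, enter the endoplasmic reticulum (ER) before they travel to the Golgi. Genes of this entry route and of the first steps of secretion were taken by name from the protein-coding genes of the GENCODE mouse release 21 annotation: the signal recognition particle and its receptor, the Sec61 channel, the translocon-associated proteins, the signal peptidase, oligosaccharyltransferase, the protein disulfide isomerases, the lectin chaperones, the p24 cargo receptors and the KDEL receptors. The rule gave 49 genes of 22028 protein-coding genes in the annotation. Reads were found for 47 of them in either library, against 18053 known genes with a read in all.

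Transcripts were measured by long-read RNA sequencing of total RNA from adrenal glands of male B6CASTF1/J mice (an F1 hybrid of C57BL/6J and CAST/EiJ) at 4 days after birth. The samples form a single untreated group, in which the labels name 2 biological replicates, each sequenced as 1 library. The labels name a different male in each tissue description and the same male in both library descriptions, so the spread between the libraries may be technical or may be between animals. Replicate 2 held 810818 mouse reads and replicate 1 held 688436.

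In textbook terms, the signal recognition particle binds the signal sequence of a new chain at the ribosome and docks on its receptor at the ER membrane. The chain is then threaded through the Sec61 channel, its signal is cut off by the signal peptidase, sugars are attached by oligosaccharyltransferase, and chaperones and disulfide isomerases fold it. Cargo receptors of the p24 family pass folded cargo into vesicles, and KDEL receptors bring escaped ER residents back. In the adrenal gland this route serves chromaffin cells, which pack secretory granules, and the steroid cells of the cortex, whose ER membranes hold many of the enzymes of steroid synthesis.

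Levels are given in CPM, counts scaled to the total of mouse reads, with the reads of a gene summed over all its transcript models. In long-read data 1 read stands for 1 transcript, complete or not, so the counts were not divided by length. For scale, a single read was worth 1.23 CPM in replicate 2, against 1.45 CPM in replicate 1. The 49 genes held 6172 reads in replicate 2 and 5765 in replicate 1, which came to 7612 CPM (0.761% of mouse reads, 95% Wilson interval 0.743 to 0.780%) and 8374 CPM (0.837%, 0.816 to 0.859%). The mean was 7993 ± 538.8 CPM (SD, n = 2). Oligosaccharyltransferase was the most abundant of the 10 groups, with 1484 CPM in replicate 2 and 1734 in replicate 1, and the p24 receptors followed with 1471 and 1678 CPM. These 2 groups lay closer to each other than their libraries did. The order of the groups depends on the name rule, and they hold from 2 to 11 genes each. P4hb, a disulfide isomerase with a mean of 829.8 CPM, lies outside them by its name. So does Dad1, a subunit of oligosaccharyltransferase with a mean of 419.5 CPM.

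The libraries differed in the levels of markers of some cell types. The summed level of 10 liver markers was 15040 CPM in replicate 2 against 297.8 CPM in replicate 1, and all 10 were higher in replicate 2 by the rule for a call given below. The summed level of 10 steroid cortex markers was 32830 CPM in replicate 2 against 48230 CPM in replicate 1, and that of 10 chromaffin markers was 11530 against 15100 CPM. Every marker on both lists had reads in both libraries. By the same rule 1 of the 10 cortex markers was called, lower in replicate 2, and 0 of the 10 chromaffin markers. By the adjusted p alone, also given below, 8 cortex and 6 chromaffin markers were lower in replicate 2, and 0 were higher. Of all genes tested, 0.967% were called lower and 4.1% were lower by the adjusted p alone. Red blood cell markers stood at 7484 CPM in replicate 2 against 3672 CPM in replicate 1. In the same order, muscle markers stood at 2583 against 1455 CPM, fat markers at 2449 against 1894 CPM and stroma markers at 5587 against 4852 CPM. Endothelium markers stood at 1009 against 1073 CPM and macrophage markers at 403.3 against 406.7 CPM. The exocrine pancreas markers summed to 71.5 CPM in replicate 2 against 63.9 CPM in replicate 1, with 6 of 10 at 0 in both libraries and most of the rest from Cela1 (66.6 against 62.5 CPM). The plasma and B cell markers summed to 368 against 430.0 CPM, with 8 of 10 read and most of the reads from Xbp1 and Sdc1, while Jchain and Igkc were at 0 in both libraries. The part of these cell types in the differences between the libraries given below was not tested. In such bulk samples fewer cells of a type and less RNA per cell cannot be told apart.

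**Figure D1:**
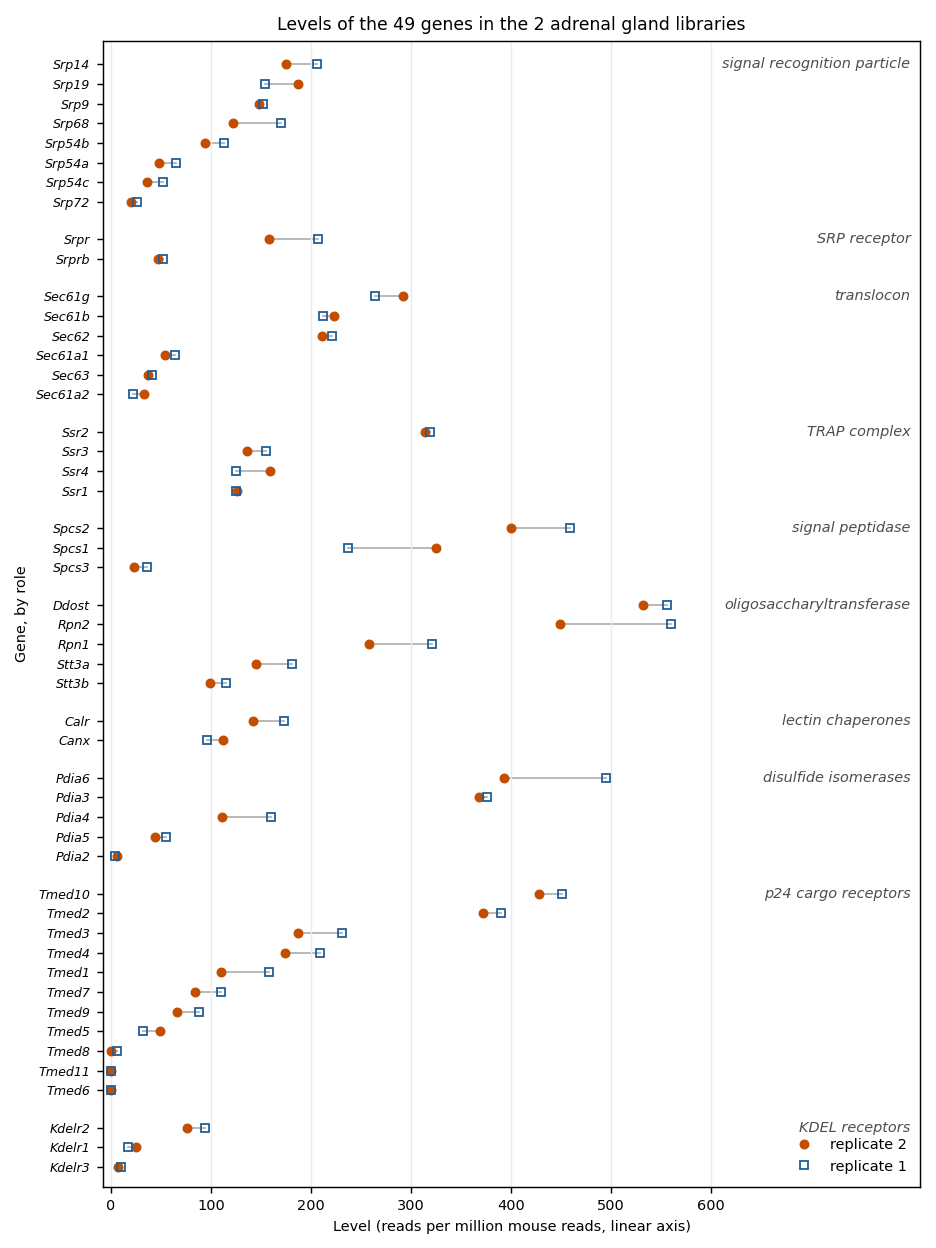
Level of each of the 49 genes in CPM (linear axis) by role, with replicate 2 as filled circles and replicate 1 as open squares. Ddost and Rpn2 have the highest means, 545 and 505 CPM, and Tmed6 and Tmed11 lie at 0 in both libraries.

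The signal recognition particle was read from 8 protein genes, with 830.0 CPM in replicate 2 and 939.8 in replicate 1. Srp14, whose product forms the Alu domain of the particle together with Srp9, had 175 CPM in replicate 2 and 206 in replicate 1. Srp9 had 148 and 153 CPM. Both partners of the Alu domain thus stood at similar levels. Srp19, which helps to load the Srp54 protein onto the RNA, had 188 CPM in replicate 2 and 154 in replicate 1. The partners of the other dimer lay far apart: Srp68 had 122 CPM in replicate 2 and 170.0 in replicate 1, whereas Srp72 had 19.7 and 26.2 CPM, from 16 and 18 reads. Srp72 was the lowest of the particle in both libraries.

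The GTPase that reads the signal sequence is encoded in the mouse by 3 neighbouring copies on chromosome 12, Srp54a, Srp54b and Srp54c. The coding sequences of the leading transcripts of Srp54a and Srp54b had 0 mismatches over 1512 bases, and each differed from that of Srp54c at 6 bases, an identity of 99.6%. Srp54b had 76 reads in replicate 2 and 78 in replicate 1, Srp54a had 39 and 45, and Srp54c had 29 and 36. With copies this alike the split of reads among the 3 genes is uncertain. The receptor of the particle was read mostly from Srpr, its subunit at the membrane surface, with 158 CPM in replicate 2 and 208 in replicate 1. Srprb, the subunit that anchors it in the membrane, had 46.9 and 52.3 CPM.

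The Sec61 channel consists of a large pore-forming alpha subunit and small beta and gamma subunits. Sec61g, the gamma subunit, had 292 CPM in replicate 2 and 264 in replicate 1. Sec61b, the beta subunit, had 223 and 212 CPM. The alpha subunit was read at a lower level: Sec61a1 had 54.3 CPM in replicate 2 and 63.9 in replicate 1, and its paralog Sec61a2 had 33.3 and 21.8 CPM. The small subunits lay above the alpha subunit in each library. Sec62, which with Sec63 serves chains that reach the channel after their synthesis, had 211 CPM in replicate 2 and 221 in replicate 1, while Sec63 had 37.0 and 40.7 CPM.

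The median level was lower among the genes with the longest leading transcripts. The leading transcripts of Sec61b and Srp9 have 564 and 1367 bases, and those of Sec61a1, Srp72 and Sec63 have 3172, 3625 and 6032 bases. Some genes with long leading transcripts had higher levels, such as Rpn1 (3633 bases, mean 289 CPM) and Sec62 (3967 bases, mean 216 CPM). The level of Sec62 rested in part on a truncated form of 929 bases, described below. It held 61 of 171 reads in replicate 2 and 53 of 152 in replicate 1. Over the 47 genes with reads, length and mean CPM had a Spearman rho of -0.28, a description across genes that share their libraries. The 16 genes with a leading transcript of 3000 bases or more had a median of 57.9 CPM, against 171 CPM for the 13 genes under 1500 bases and 170.1 CPM for the 18 between. The part of length in the low counts of Srp72, Sec63 and Sec61a1 was not tested.

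The translocon-associated proteins flank the channel and help chains with weak signals to enter. Ssr2 led them, with 315 CPM in replicate 2 and 320 in replicate 1. The other members lay within a narrow range, from 126 to 159 CPM in replicate 2 and from 125 to 155 in replicate 1. For Ssr1 the libraries gave 126 and 125 CPM, the closest pair among the 44 genes of the set with at least 20 reads.

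Ssr4 was the only gene of the set with 2 transcripts that each held over 25% of its complete and new-splice reads in both libraries, and they differ by a single codon. Its leading transcript, Ssr4-208, held 72 of 114 reads in replicate 2 (63.2%, 95% Wilson interval 54 to 71.5%) and 55 of 84 in replicate 1 (65.5%, 54.8 to 74.8%). The other, Ssr4-201, held 26.3% and 29.8%. Exon 1 of both ends at base 73787306 of chromosome X (mm10, plus strand). Exon 2 begins at 73788835 in Ssr4-208 and at 73788838 in Ssr4-201, so 3 coding bases between the alternative acceptors are kept or left out. The junctions are shown because they carry that choice, with 20 bases of exon 1 followed by 20 bases of exon 2 and the optional bases in capitals.
Ssr4-208: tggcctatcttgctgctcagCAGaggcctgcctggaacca
Ssr4-201: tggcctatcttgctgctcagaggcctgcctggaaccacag
Both forms were present in each library, and the intervals of their shares overlapped between the libraries.

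The signal peptidase cuts the signal sequence from the new chain. Its noncatalytic subunits Spcs2 and Spcs1 had 401 CPM and 326 CPM in replicate 2, against 459 CPM and 237 CPM in replicate 1. The order of the pair was the same in both libraries, with a wider gap in replicate 1. Spcs3, a subunit that the enzyme needs for its activity, had 23.4 CPM in replicate 2 and 36.3 in replicate 1, from 19 and 25 reads, the lowest level of the complex in both libraries.

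Oligosaccharyltransferase attaches a preassembled glycan to asparagines of the incoming chain. Ddost, a noncatalytic subunit, had the highest mean level of the 49 genes and was number 235 among all known genes with a read. It had 533 CPM in replicate 2 and 556 in replicate 1. The ribophorin genes Rpn2 and Rpn1 encode further noncatalytic subunits. Rpn2 had 449 CPM in replicate 2 and 561 in replicate 1, and Rpn1 had 258 and 321 CPM. The catalytic subunit comes from either of 2 paralogs. Stt3a, which acts while the chain is being made, had 146 CPM in replicate 2 and 182 in replicate 1, and Stt3b, which also acts later, had 98.7 and 115 CPM. Stt3a lay above Stt3b in each library, though with 2 libraries this order could not be tested over samples.

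Calreticulin and calnexin hold chains that carry the trimmed glycan. Calr had 142 CPM in replicate 2 and 173 in replicate 1, and Canx had 112 and 95.9 CPM. Genes of this class are textbook targets of the unfolded protein response, whose factors Atf6 and Nfy bind the ER stress element. The letters of that element, CCAAT and CCACG with 9 bases between them, were searched on both strands of RefSeq promoters (GRCm38.p6, the patch release of mm10) that run from 250 bases before to 50 bases after each gene's start. Promoters matched 40 of the 49 genes, and 3 of those 40 held the element (7.5%), against 37 of 27025 genes in the whole promoter table (0.137%). That table was not limited to protein-coding genes or to genes with a read. The 3 genes were Calr, Canx and Pdia6. The shorter element, ATTGG and CCACG with 1 base between them, was in none of the 40, against 0.0444% of all genes. The matches are shown with 12 bases on each side, in the direction of the gene and with the matching letters in capitals. The elements begin 162, 145 and 98 bases before the start of Calr, Canx and Pdia6. The printed stretches, flanks included, lie at chr8:84847063-84847105 (minus strand), chr11:50325788-50325830 (minus strand) and chr12:17266479-17266521 (plus strand), and the element of Calr reads on the opposite strand.
Calr: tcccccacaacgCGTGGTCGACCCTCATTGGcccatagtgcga
Canx: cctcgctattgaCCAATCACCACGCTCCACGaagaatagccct
Pdia6: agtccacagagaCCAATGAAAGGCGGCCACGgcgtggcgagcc
These are matches of letters and no measure of binding, and a promoter without them may hold the element outside this window.

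Protein disulfide isomerases make and exchange disulfide bonds in folding chains. Pdia6 had 393 CPM in replicate 2 and 495 in replicate 1. Pdia3, which works with calreticulin and calnexin on glycoproteins, had 369 and 376 CPM. Pdia4 had 111 CPM in replicate 2 and 159.8 in replicate 1, and Pdia5 had 44.4 and 55.2 CPM. Pdia2, a family member known from the pancreas, had 5 reads in replicate 2 and 3 in replicate 1, or 6.17 and 4.36 CPM. It was the lowest of the family in both libraries, at or just above the 3 reads that a count of 0 allows.

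Cargo receptors of the p24 family differed widely in level. Tmed10 and Tmed2, partners in the p24 complexes that cycle between the ER and the Golgi, had 428 CPM and 373 CPM in replicate 2, against 452 CPM and 391 CPM in replicate 1. Tmed3 had 188 CPM in replicate 2 and 231 in replicate 1, and Tmed4 had 174 and 209 CPM. Tmed1, Tmed7, Tmed9 and Tmed5 lay between 32 and 158 CPM over both libraries. At the bottom, Tmed8 had 0 reads in replicate 2 and 4 in replicate 1, and Tmed6 and Tmed11 had 0 in both. A count of 0 allows up to 3.70 CPM in replicate 2 and 4.36 in replicate 1, for counting error only. Within 1 family the levels thus ran from Tmed10, number 4 of the set by mean level over all models, to genes below detection at this depth. The place of Tmed10 above Tmed2 rested on genomic reads, described below. Without genomic models the means were 319 CPM for Tmed10 and 395 CPM for Tmed2.

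Receptors that return KDEL-bearing proteins to the ER were read mostly from Kdelr2, with 76.5 CPM in replicate 2 and 94.4 in replicate 1. Kdelr1 had 24.7 and 17.4 CPM, from 20 and 12 reads. Of the Kdelr1 reads, 11 in replicate 2 and 2 in replicate 1 were genomic, a class described below. Complete known transcripts of Kdelr1 had 7 and 8 reads. Kdelr3 was the lowest, with 6 reads in replicate 2 and 7 in replicate 1, or 7.4 and 10.2 CPM. The order of the 3 receptors was the same in both libraries.

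To compare the libraries, the reads of each gene and the remaining mouse reads formed a table for Fisher's exact test, two-sided. Its p-values were adjusted by Benjamini and Hochberg's method across 8276 genes, those with a sum of 20 reads or more. A call needed an adjusted p below 0.05 together with a log2 ratio, replicate 2 over replicate 1, of 1 or more in either direction, where 0.5 CPM was added to each level. With 1 library on each side the test compares the libraries with counting error alone and has no replicate check. None of the 44 genes tested was called, where 3.23% of all genes tested were (2.26% higher and 0.967% lower in replicate 2). At an unadjusted p under 0.05 there were 8 of the 44, against 1586 of all 8276 genes, a like share. Their log2 ratios had a median of -0.23, with 10 above and 34 below 0, against a median of -0.10 over all genes tested. The ratios ran from -0.62 for Spcs3 to 0.62 for Tmed5, and 38 of 44 (86.4%) lay within 0.5 of 0, against 70.9% of all genes tested. The 2 sets were not matched by reads, and counting error widens the ratios of genes with few reads. A difference in steadiness between the sets was therefore not tested. Under DESeq2's size factors the median of all genes was 0.01 and that of the 44 was -0.12, with 17 above and 27 below 0, so that the sign of ratios near 0 depended on the scaling.

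By the adjusted p alone, which 7.93% of all genes tested passed (3.83% higher and 4.1% lower in replicate 2), 3 of the 44 differed, each by less than the size needed for a call. Spcs1 was higher in replicate 2, with 264 reads against 163 in replicate 1 and a log2 ratio of 0.46 (counting SE 0.144, adjusted p = 0.0218 by Fisher's exact test). Rpn2 was lower in replicate 2, with 364 reads against 386 in the smaller library of replicate 1, a log2 ratio of -0.32 (SE 0.105, adjusted p = 0.0335 by Fisher's exact test). Pdia6 was lower as well, with 319 against 341 reads and a log2 ratio of -0.33 (SE 0.112, adjusted p = 0.0444 by Fisher's exact test). In the annotation (mm10) Spcs1 lies at chr14:30999826-31001672 on the minus strand, Rpn2 at chr2:157279017-157326319 and Pdia6 at chr12:17266545-17284770, both on the plus strand. Of these, Spcs1 alone passed the adjusted p under TMM scaling and DESeq2's size factors, where Rpn2 and Pdia6 did not. Since each side is 1 library, these p-values say nothing of how animals differ.

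**Figure D2:**
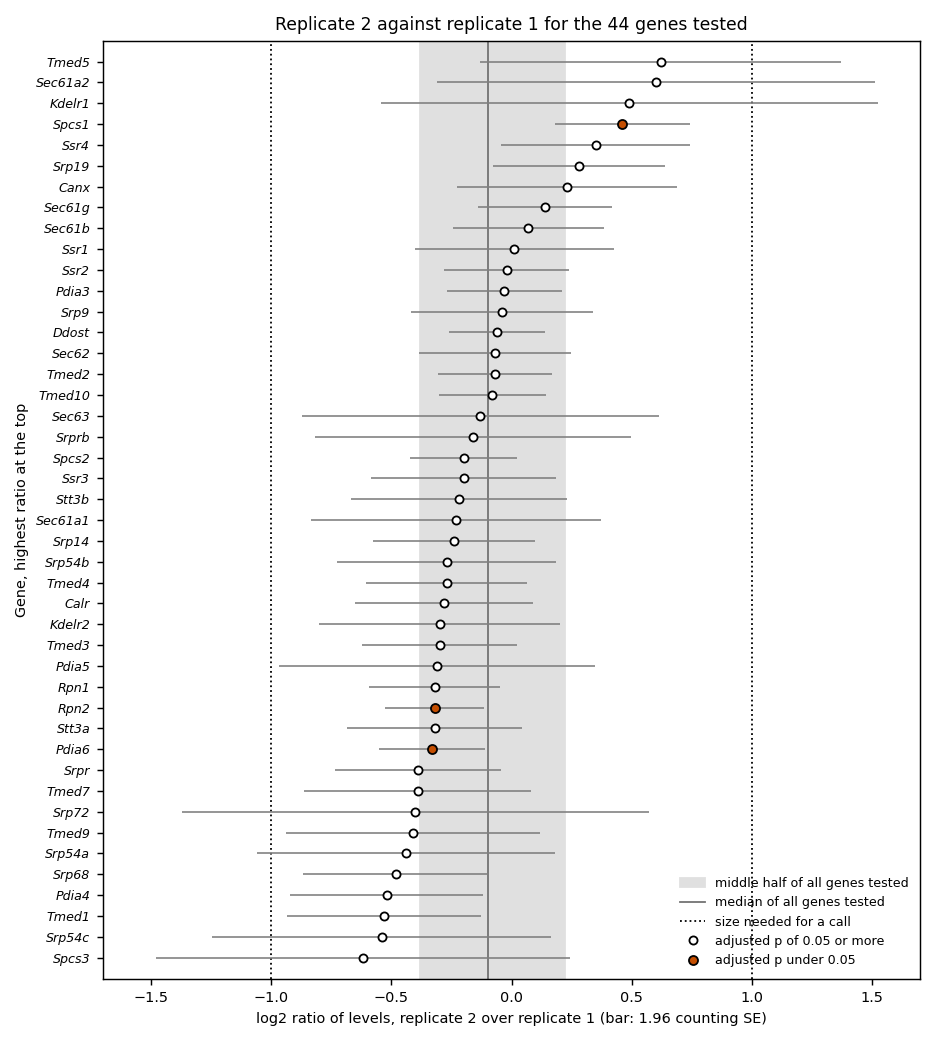
The log2 ratio of levels in replicate 2 over replicate 1 for the 44 genes tested, with bars for the 95% counting interval, the median of all 8276 genes tested as a line with their quartiles as a grey band, and the size needed for a call as dotted lines. No gene reaches the dotted lines, and the 3 filled points are Spcs1 on the right and Rpn2 and Pdia6 on the left.

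Other genes of the pathway were read from 8 lists of gene names. None of their tested genes was called, against 3.23% of all genes tested. Those past the adjusted p alone, which 7.93% of all genes passed (3.83% higher and 4.1% lower in replicate 2), were all lower in replicate 2. The list of membrane insertion was drawn from the routes for tail-anchored and multipass proteins, apart from Snd1. That gene is not known as a part of these routes. It counts among the genes found and tested and in the list median, with a log2 ratio of 0.28. Of the 22 names on this list 19 were found in the annotation, and Get1, Get3 and Camlg of the tail-anchored route were not. Names were looked up exactly as written, so a gene that the annotation lists under another symbol was missed. The levels of these genes were therefore not read. Of the 17 tested genes on the list 2 passed the adjusted p alone, with a list median of 0.03. They were Sgta, a cochaperone that receives tail-anchored proteins, with 480 CPM in replicate 2 and 622 in replicate 1, and Get4, with 202 and 280.3 CPM. These also had the highest mean CPM of that list. Of the signal peptidase catalytic subunits and the transamidase of lipid anchors, 0 of 6 passed, with a median of -0.24, and the genes with the highest mean CPM were Gpaa1 (153 CPM in replicate 2 and 177 in replicate 1) and Pigs (138 and 174 CPM). The catalytic subunit Sec11a had 144 CPM in replicate 2 and 119 in replicate 1, and its paralog Sec11c had 50.6 and 43.6 CPM.

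Among the small subunits of oligosaccharyltransferase and the enzymes of glycan trimming, 1 of 14 tested genes passed the adjusted p alone, with a median of 0.04. It was Edem2, which marks misfolded glycoproteins for degradation, with 115 CPM in replicate 2 and 171 in replicate 1. Dad1, a small subunit that all forms of the enzyme share, had 437 CPM in replicate 2 and 402 in replicate 1, and Tmem258 had 405 and 338 CPM. Of the ER chaperones, 2 of 23 passed, with a median of -0.15. They were Hspa5, the Hsp70 of the ER, with 549 CPM in replicate 2 and 811 in replicate 1 (log2 ratio -0.56, adjusted p = 5.5e-08 by Fisher's exact test), and Txndc5, a disulfide isomerase, with 530.3 and 718 CPM. The most abundant chaperone was P4hb, the founding disulfide isomerase, with 797 CPM in replicate 2 and 863 in replicate 1, above each of the 5 Pdia genes.

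Of the unfolded protein response, 1 of 9 tested genes passed, with a median of -0.45. It was the transcription factor Xbp1, with 243 CPM in replicate 2 and 357 in replicate 1, and Herpud1 followed it in level with 164 and 148 CPM. In ER-associated degradation 0 of 14 passed, with a median of -0.22, led by Vcp (371 CPM in replicate 2 and 404 in replicate 1) and Os9 (218 and 257 CPM). In the COPII coat, which buds vesicles from the ER, 1 of 13 passed, with a median of -0.26. That gene was Stx5a, a SNARE of ER to Golgi transport, with 95.0 CPM in replicate 2 and 171 in replicate 1. The coat GTPase Sar1a, with 281 and 339.9 CPM, and Sec13, with 149 and 142 CPM, had the highest means over both libraries, though Stx5a lay above Sec13 in replicate 1. In the COPI coat and cargo receptors 1 of 21 passed, with a median of -0.14. It was the GTPase Arf1, with 405 CPM in replicate 2 and 571 in replicate 1, and the coat subunit Cope had 417 and 456 CPM.

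Transcript models in the files fall into classes by their match to the annotation. Complete known transcripts held 5234 of the 6172 reads of the 49 genes in replicate 2 (84.8%, 95% Wilson interval 83.9 to 85.7%) and 5124 of 5765 in replicate 1 (88.9%, 88.0 to 89.7%). The other protein-coding genes had 73.8% in replicate 2 and 76.9% in replicate 1. New combinations of known splice sites held 1.41% of the reads in replicate 2 and 0.798% in replicate 1, against 5.05% and 4.95% in the other genes. Models with a new splice site held 1.99% in replicate 2 and 1.68% in replicate 1, against 3.37% and 3.54%. In each library the pooled reads of the 49 genes had a larger complete share and smaller new shares than those of the other genes. The intervals cover the counting of reads and not the spread among genes, so they do not test a difference between the sets of genes. Of the complete reads, 98.4% in replicate 2 and 99.2% in replicate 1 came from transcripts that the annotation names protein coding.

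**Figure D3:**
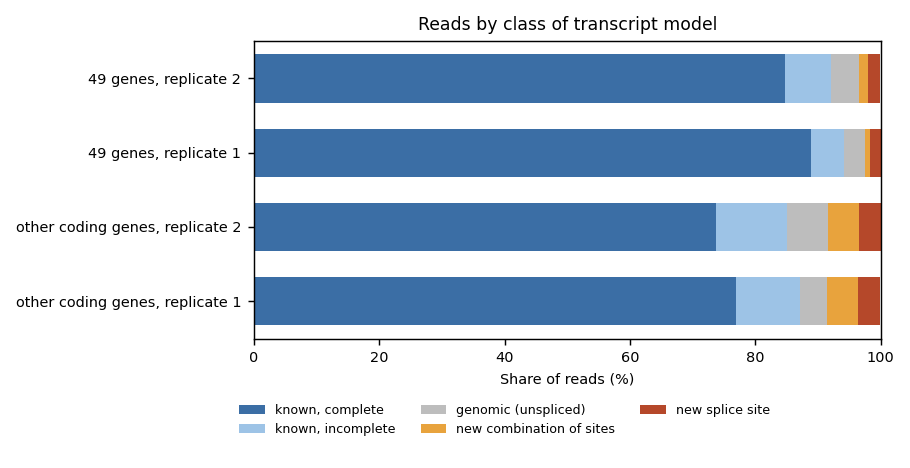
Share of reads in percent by class of transcript model, for the 49 genes and for all other protein-coding genes in replicate 2 and replicate 1. Complete known transcripts take 84.8 and 88.9% in the 49 genes and 73.8 and 76.9% in the other genes.

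The complete share was not even among the genes. Spcs1, Srp9 and Spcs2 had over 96% in both libraries, while Sec62 had 53.8% in replicate 2 and 58.6% in replicate 1. Most of the rest of Sec62 was a single truncated form that keeps the start of the transcript. It had 61 reads in replicate 2 and 53 in replicate 1. Incomplete models that keep the start of the transcript held 1.49% of the reads of the 49 genes in replicate 2 and 1.20% in replicate 1, against 0.664% and 0.688% in the other genes, and most were from this gene: Sec62 held 62 of 92 such reads of the 49 genes in replicate 2 and 53 of 69 in replicate 1.

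Single-exon reads at the end of the gene made up much of the count of some p24 genes. Tmed10 had 119 genomic reads of 347 in replicate 2 (34.3%) and 89 of 311 in replicate 1 (28.6%), where genomic is the files' class for models that overlap a gene without matching its splicing. In Tmed9 a model of its last exon alone held 29 of 54 reads in replicate 2 and 19 of 61 in replicate 1. Ddost had 51 reads of its last exon alone in replicate 2 and 23 in replicate 1, which the files put in an incomplete class in replicate 2 and in the genomic class in replicate 1. Sec61a1 had 14 genomic reads of 44 in replicate 2 and 11 of 44 in replicate 1. Kdelr1 had 11 of 20 in replicate 2 (55.0%) and 2 of 12 in replicate 1 (16.7%). Those of replicate 2 lay in a single-exon model, chr7:45882977-45884289, which runs past the annotated end of the gene at 45883732. Without genomic models the mean level of Tmed10 was 319 CPM in place of 439.9 CPM. Sec61a2 had the lowest complete share of the genes tested, 22.2% of 27 reads in replicate 2 and 26.7% of 15 in replicate 1.

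**Figure D4:**
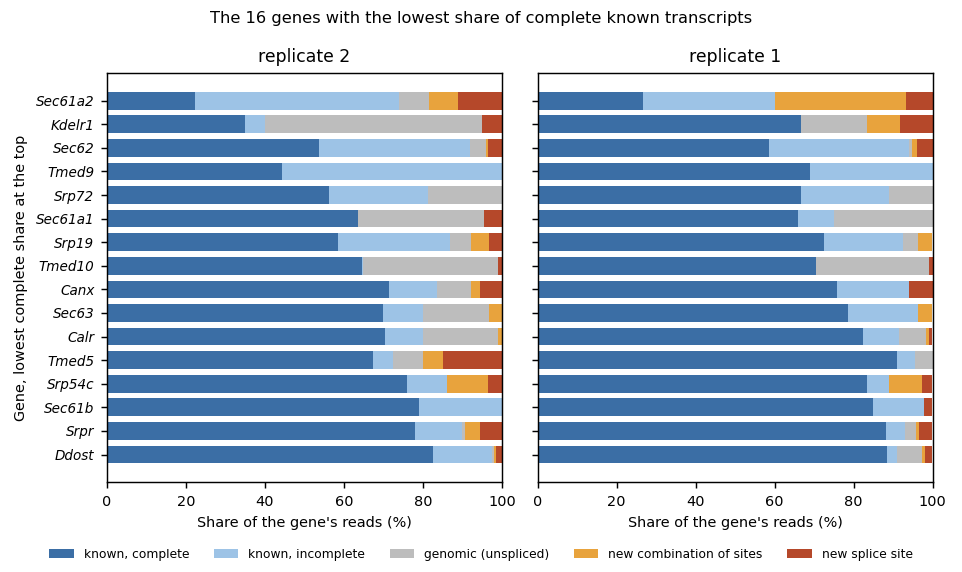
Share of each gene's reads in percent by class of transcript model in replicate 2 (left) and replicate 1 (right), for the 16 genes with the lowest share of complete known transcripts. Light blue, incomplete reads, is wide for Sec62 and Tmed9. Grey, genomic reads, is wide for Tmed10 and Sec61a1, and for Kdelr1 in replicate 2.

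Isoform usage was read from complete and new-splice models, in the 2440 genes that had 50 or more of them in each library. Fisher's exact test, two-sided, set the reads of the leading transcript against those of all its alternatives, and a call needed a gap of 10 points or more with an adjusted p below 0.05 over these genes. None of the 32 genes tested was called, against 0.41% of all genes, and 4 of 32 had an unadjusted p under 0.05, against 177 of all 2440. The leading transcript held at least 90% of reads in both libraries in 22 of 32 genes (68.8%), against 50.1% of all genes tested. Its median share was 95.6% in replicate 2 and 96.2% in replicate 1, against 91.0% and 92.3% over all genes. In no gene was it under 60% in both libraries.

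For the 10 genes with the most complete and new-splice reads the leading transcript lay between 89.4% and 98.6% in replicate 2 and between 93.1% and 98.8% in replicate 1. Ddost-201 held 97.5% in replicate 2 and 97.1% in replicate 1. Rpn2-202 held 93.7% and 94.9%, Pdia6-201 held 96.1% and 98.8%, and Spcs2-201 held 98.4% and 96.5%. Among complete and new-splice reads, each of these genes thus had 1 main form. Likewise among those reads, leading shares were high for Tmed2-201 (94.2% in replicate 2 and 94.3% in replicate 1), Pdia3-201 (98.6% and 97.6%), Tmed10-201 (97.8% and 97.3%), Spcs1-204 (95.4% and 95.6%) and Rpn1-201 (95.5% and 98.6%). Ssr2-207 held 89.4% in replicate 2 and 93.1% in replicate 1, beside Ssr2-201, in which the first intron is kept and which held 8.57% and 6.45%. Sec61g-203, of the next gene by reads, held 84.8% in replicate 2 and 88.3% in replicate 1, beside Sec61g-207, whose first donor lies 25 bases away and which had 20 and 9 reads.

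Srp19 had the largest difference between the libraries. Srp19-201 held 67.3% of 101 reads in replicate 2 (57.7 to 75.7%) and 88.9% of 81 in replicate 1 (80.2 to 94.0%), a difference of -21.6 points with an adjusted p of 0.0972 by Fisher's exact test, which did not pass. The main alternative, Srp19-204, had 19 reads in replicate 2 and 2 in replicate 1. It skips an exon of 76 coding bases, after which the reading frame meets a stop at codon 16, against a coding sequence of 144 codons in Srp19-201. When incomplete reads were counted among the alternatives, Srp19 and Ddost were called. For Ddost the counted reads include those of its last exon alone in replicate 2, 51, but not the 23 of replicate 1, which the files class as genomic. Over all its reads, complete known transcripts held 82.6% in replicate 2 and 88.5% in replicate 1. Stt3a-201 held 89.2% in replicate 2 and 98.3% in replicate 1 (adjusted p = 0.313 by Fisher's exact test).

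**Figure D5:**
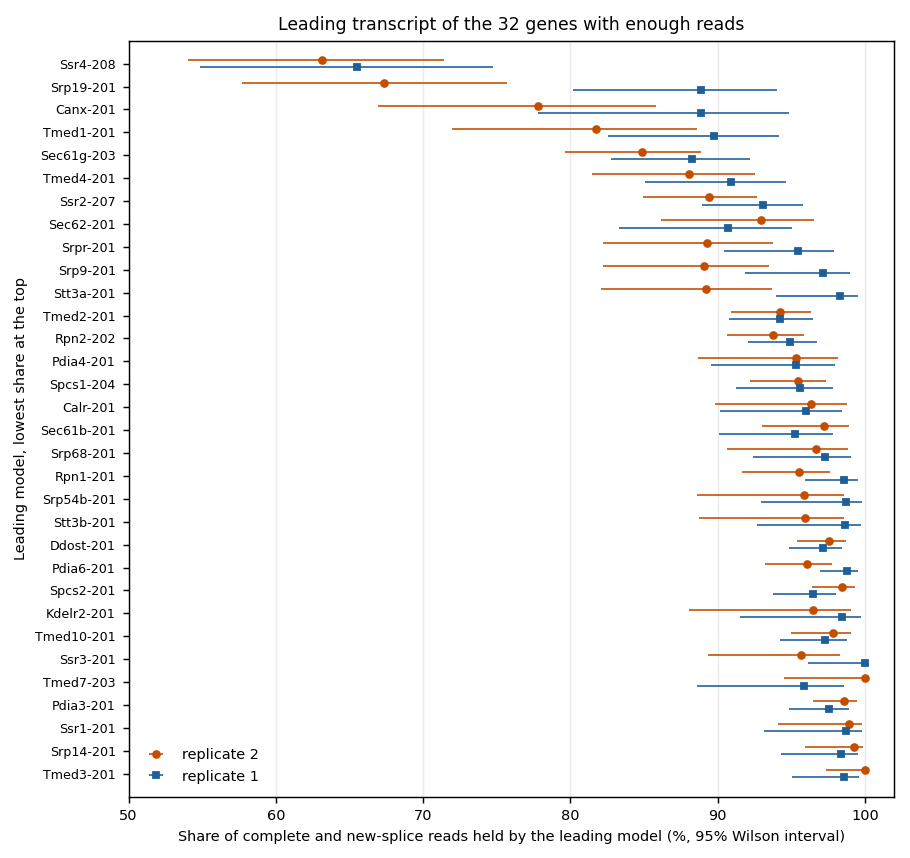
Share of complete and new-splice reads held by the leading transcript of 32 genes, in percent with 95% Wilson intervals, in replicate 2 (circles) and replicate 1 (squares); the axis begins at 50%. Ssr4-208 is lowest in both libraries, at 63.2 and 65.5%, and Srp19-201 shows the widest gap, at 67.3 and 88.9%.

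New transcript models were rare, and the 10 with the most reads among those found in both libraries had at most 7 reads in a library. They lay in Sec61g, Tmed2, Rpn2 (2 models), Sec62, Canx, Stt3a, Tmed4, Srp54c and Srprb, with Sec61a2 level with the last at 5 reads in all. In Tmed2 a model with 7 reads in replicate 2 and 4 in replicate 1 added an exon of 21 bases, chr5:124543487-124543507, which the annotation has only in Tmed2-203. In Rpn2 a model with 5 and 4 reads added an exon of 48 bases, chr2:157323223-157323270, which the annotation has in Rpn2-201 and Rpn2-205. Both exons lie on the plus strand inside the coding sequence and keep the reading frame. The stop would then be codon 209 in Tmed2, whose leading form has 201 coding codons, and codon 648 in Rpn2, whose leading form has 631. They are shown in capitals between the coding bases of the neighbouring exons, since they are the added sequence of these forms.
Tmed2: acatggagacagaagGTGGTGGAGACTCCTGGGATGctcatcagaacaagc
Rpn2: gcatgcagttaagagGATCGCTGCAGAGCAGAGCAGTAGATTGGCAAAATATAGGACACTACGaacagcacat
An exon was skipped, with a break of the frame, in 2 others of these models found in both libraries. In Stt3a a model with 6 reads in replicate 2 and 1 in replicate 1 skipped an exon of 122 bases, chr9:36759203-36759324 on the minus strand, and met a stop at codon 70 of a coding sequence of 705 codons. In Sec61a2 a model with 1 read in replicate 2 and 4 in replicate 1 skipped an exon of 154 bases, chr2:5877855-5878008 on the minus strand, and met a stop at codon 163 of 476.

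Some of the other new models moved splice sites by small steps. In Sec61g, with 6 reads in replicate 2 and 5 in replicate 1, a donor moved by 2 coding bases. In Tmed4, with 3 and 4 reads, a donor moved by 7 coding bases, and in Canx, with 4 and 3 reads, a donor moved by 36 bases outside the coding sequence. Sec62, with 5 and 4 reads, had an intron of 639 bases inside its last exon, of which 27 are coding. The second Rpn2 model, with 1 read in replicate 2 and 4 in replicate 1, moved an acceptor by 5 coding bases. Srp54c had another last exon in 3 reads of each library, a gene whose counts are uncertain as given above, and Srprb had a new splice site in 5 reads of replicate 2 and 1 read of replicate 1.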

How the data were processed

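Each library came with a deposited table of raw read counts, in which the authors list every transcript model that had a read. Per the descriptions of the deposited files, reads were aligned to mm10 with the GENCODE mouse release 21 annotation and ERCC spike-in sequences, and per the file headers models carry TALON classes. The aligner, its settings and the filters on models: not given in the sources used here. Reads were summed per gene over all models, and CPM used all mouse reads (810818 in replicate 2 and 688436 in replicate 1, of 832552 and 707726 reads), without spike-ins. Models were matched between libraries by identifier if known and by their intron chain if new. The members, lists and tests were chosen with earlier results of these data known. Named genes were the 20 members with the highest mean CPM, members called or under 20 reads, the lowest of each family, and the 2 most abundant and each called gene of 8 pathway lists. For isoforms they were the leading models of the 10 members with the most eligible reads, those under 60% and called differences, and the 10 most abundant new models. Genes past the adjusted p alone, the remaining members, Ssr4, Srp19, Sec11a and Sec11c and the truncated forms were described after their values were seen. Ddit3, which the annotation lists as 2 overlapping genes, was not tested. Fisher's exact tests used SciPy 1.17.1 (Python 3.11.15). The test of gene levels was run on simulated counts with counting error alone, and the test of isoform usage was not. Alternatives used edgeR 4.0.16 (TMM) and DESeq2 1.42.0. Intervals and floors cover counting error only. Gene coordinates and transcript sequences are from GENCODE release 21 (mm10). Protein sequences were not used here. Some sequence results are not reported here.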

Additional observations from a re-analysis of the deposited data

Results flagged for a closer look

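Reads on the strand opposite a gene were no part of the counts above and were listed where they passed the 3 reads that a count of 0 allows in both libraries. Ssr1 had 70 reads of single-exon models on the opposite strand in replicate 2 and 45 in replicate 1. Ssr3 had 50 in replicate 2 and 24 in replicate 1, and Spcs3 had 13 and 7. The most abundant such models lay wholly inside the last exon of their gene: 3919 bases at chr13:37975825-37979743 for Ssr1 in replicate 2, 2026 bases at chr3:65379655-65381680 for Ssr3 in both libraries and 1505 bases at chr8:54521891-54523395 for Spcs3 in replicate 2 (mm10, plus strand). Models that share an intron with one of the 49 genes on the opposite strand had 1 read in each library. The cause of these reads was not tested.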

How the results depend on the processing

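The count of 0 called genes of the set stayed at 0 under TMM scaling, DESeq2's size factors, read minimums of 10, 50 and 1, pseudocounts of 0.1 and 1 CPM, without genomic models and with known models alone, and the ratios of Spcs1, Rpn2, Pdia6, Spcs3 and Tmed5 kept their sign wherever they were tested (Spcs3, with 44 reads, was not tested at a minimum of 50). The count past the adjusted p alone was 3. It went to 2 with a minimum of 10 reads, where Pdia6 had an adjusted p of 0.0504 by Fisher's exact test, and to 1, Spcs1, under TMM scaling, DESeq2's size factors, no read minimum, without genomic models and with known models alone. With known models alone the summed level was 9623 CPM, scaled to the total of known models, which holds fewer reads. Leaving out each library in turn gave 7612 and 8374 CPM, and complete shares of 84.8 and 88.9%. Without genomic models the complete share was 90.4%. Called differences in usage stayed at 0, except with incomplete matches added, which gave 2. With a minimum of 50 reads 161 of all genes were called, against 267, since fewer genes were tested. Depth limits the comparison: the counting SE of the log2 ratio was 0.379 for Sec63, with 58 reads over both libraries, and 0.112 for Pdia6, with 660. No paired analysis was possible because there is 1 group.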

Other observations

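Besides Sec62, Sec61a2 had a large share of incomplete reads that keep the start of the transcript, 11 of 27 reads in replicate 2 and 4 of 15 in replicate 1, most of them in a model of 6 exons that ends at base 5881808 of chromosome 2 (mm10, minus strand). Besides Srp19-204, another shortened form of a signal recognition particle gene had more reads in replicate 2. Srp9-202, which skips an in-frame exon of 69 bases, had 8 reads in replicate 2 and 1 in replicate 1. The share of the leading Srp9-201 was 89.1% in replicate 2 and 97.1% in replicate 1 (adjusted p = 0.629 by Fisher's exact test). Promoters that hold the letters CCAAT alone made up 62.5% of the members with a promoter and 41.1% of all genes of the promoter table. Those with CCACG alone made up 67.5% and 35.5%, counts that include those of the full element. The table was not limited to protein-coding genes or to genes with a read, so its shares are no matched background.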
